A study of Mus musculus with 2 samples.

Results

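The 10 genes described here encode RNA-binding proteins that regulate alternative splicing: Esrp1, Esrp2, Rbfox2, Celf1, Celf2, Mbnl1, Mbnl2, Mbnl3, Ptbp1 and Ptbp2. They were chosen by gene name as regulators of epithelial and pluripotency splicing, with earlier results of these data known. All 10 were found among the 13620 genes of the deposited expression table. They belong to the ESRP, RBFOX, CELF, MBNL and PTBP families, and 5 of them are listed under their current symbols. The other 5 are listed under older symbols (Rbm35a for Esrp1, Rbm35b for Esrp2, Rbm9 for Rbfox2, Cugbp1 for Celf1 and Cugbp2 for Celf2) and were matched by Ensembl identifier. The series compared 1 library of polyA RNA from wild-type (WT) mouse embryonic stem (ES) cells with 1 library from Fbxl10 T/T ES cells, both of strain C57BL/6J. Both cultures were grown with serum and leukemia inhibitory factor on mitotically inactivated embryonic fibroblasts, which were depleted by differential attachment before use. Fbxl10, now named Kdm2b, encodes a CpG-binding subunit of a variant Polycomb repressive complex 1. The labels do not say what the T allele alters, from how many ES cell lines or clones the RNA came, or how long the cells had been in culture.

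Alternative splicing regulators bind short RNA motifs near exons and promote or block the use of those exons, depending on where they bind. ESRP proteins are found mainly in epithelial cells, where they maintain epithelial isoforms of transcripts such as those of Fgfr2, Cd44 and Enah. MBNL proteins are known to oppose the exon pattern of ES cells and to promote that of differentiated cells, and CELF proteins often act on the same exons in the opposite direction. RBFOX2 acts in ES cells and many other tissues, and PTBP1 represses neuronal exons, among them an exon of Ptbp2 whose skipping leads to decay of the Ptbp2 transcript. The deposited values are sums of reads over whole genes, so they give the amount of RNA of each regulator but not which exons were used in its targets.

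Levels are in CPM, that is, read counts per 1000000 reads of a library size that the authors normalised, and they were recovered as whole reads. The wild-type library held 21198574 reads in listed genes and the T/T library 27109446, and 1 read was worth 0.0419 and 0.0405 CPM. The log2 ratio of a gene is that of T/T over wild type after 0.5 CPM was added to both, and folds are plain ratios of CPM. Each genotype had a single library, so no difference between genotypes could be tested. "Higher" and "lower" compare these 2 libraries, and 95% intervals (exact Poisson for levels, exact Clopper-Pearson for folds) cover counting error only. Kdm2b itself had 102.5 CPM in wild type and 10.6 CPM in T/T, 9.66-fold lower, so the gene named in the genotype had less RNA in the library labelled T/T.

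The markers of the cells themselves differed between the libraries. The labelled cell type, ES cell, was checked by 15 pluripotency genes, all of them listed and summing to 8415 CPM in wild type. In T/T the sum was 2279 CPM, with 11 of the 15 genes at least 2-fold lower. Of 14 listed extraembryonic endoderm markers 13 were higher in T/T, with a sum of 6884 CPM in wild type and 64447 CPM in T/T. Fibroblast markers, which would mark feeder cells, summed to 973.7 and 549.3 CPM, with 2 of 14 lower and none higher. Of all genes that reached 1 CPM in either library, 20.6% were 2-fold lower and 14.8% were 2-fold higher. Of 10 neuronal markers 6 were listed, at a sum of 306.1 and 118.2 CPM, and of 8 muscle markers 4, at a sum of 34.2 and 14.4 CPM. Among markers listed, none was at 0 in either library, while Dcx, Snap25, Map2, Myod1, Myog, Lum, Fap and Afp were among those not listed. In bulk RNA, fewer cells of a type and less RNA per cell cannot be told apart, and the part of these marker differences in the ratios of the splicing regulators was not tested.

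The largest ratios of the set were those of the epithelial regulators, in opposite directions: Esrp1 was far lower and Esrp2 far higher in Fbxl10 T/T. Of the 10 regulators, 1 (Esrp2) was higher by 2-fold or more, 3 (Esrp1, Rbfox2 and Celf2) were lower by that much, and 6 showed smaller ratios. Of the 13512 genes that reached 1 CPM in either library, 14.8% were 2-fold higher and 20.6% were 2-fold lower, 35.3% in all. A count of 1 and 3 among 10 is near that background, so the number of genes past 2-fold is not a result about this set. At 1.5-fold, 2 of the 10 were higher (Esrp2 and Mbnl2) and 3 lower, against 26.5% and 28.7% of all genes. At 4-fold, 1 was higher (Esrp2) and 1 lower (Esrp1), against 3.84% and 9.1% of all genes. The median log2 ratio was -0.30, against 0.01 over all listed genes. An exact binomial test of the reads, which compares these libraries and not the genotypes, called 8 of the 10 genes, all but Mbnl1 and Mbnl3. It also called 83.3% of all genes, 42.4% as higher and 40.9% as lower, so those calls carry little information on the set. All 10 genes passed the 1 CPM minimum in at least 1 library, and none was at 0 in either.

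**Figure D1:**
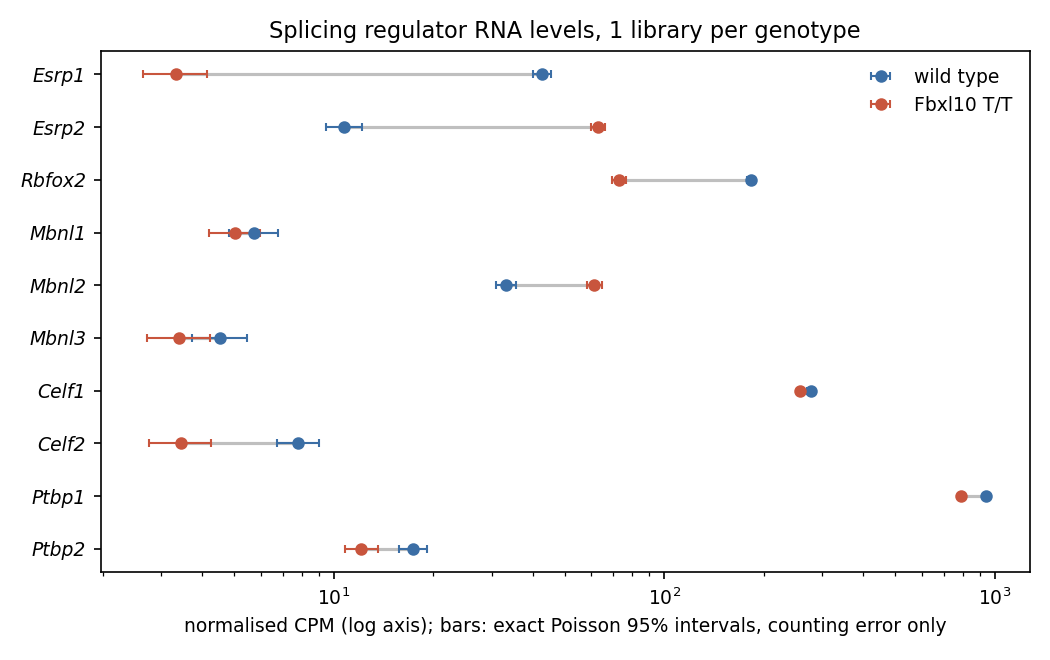
Level of each of the 10 splicing regulators in the wild-type (blue) and Fbxl10 T/T (red) library, in normalised CPM on a log axis, with 1 library per genotype and bars for exact Poisson 95% intervals of counting error. Esrp1 (42.7 and 3.32 CPM) and Esrp2 (10.7 and 62.8 CPM) differ in opposite directions, while the points of Mbnl1, Mbnl3, Celf1 and Ptbp1 lie close together.

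Esrp1 (listed on chromosome 4 from 11259080 to 11313930 in mm9) was at 42.7 CPM in wild type, from 1020 reads, and at 3.32 CPM in T/T, from 82 reads. It was 12.9-fold lower in T/T (interval 10.3 to 16.3), and 1.24% of the genes that reached 1 CPM had a lower log2 ratio. Esrp2 (chromosome 8, 108654302 to 108660742) was at 10.7 CPM in wild type, from 256 reads, and at 62.8 CPM in T/T, from 1551 reads. It was 5.86-fold higher in T/T (interval 5.13 to 6.72), and 2.05% of those genes had a higher log2 ratio. The ratio of Esrp2 to Esrp1 reads was therefore 75.4 times as large in T/T as in wild type (interval 58.1 to 97.8), a comparison in which gene length cancels.

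The 2 paralogues were distinct in exact stretches of 50 bases, while shorter or inexact matches were not examined. No stretch of 50 bases occurred in annotated transcripts of both Esrp1 and Esrp2, out of 6480 and 4565 distinct stretches in GENCODE M21. Exons of other genes covered 2.01% of the exonic bases of Esrp1 and 7.79% of those of Esrp2, the latter shared with Nfatc3, whose listed interval overlaps that of Esrp2, and with 1810019D21Rik. Nfatc3, which encodes a calcium-regulated transcription factor, was at 52.0 CPM in wild type and 45.9 CPM in T/T, a log2 ratio of -0.18 against 2.50 for Esrp2.

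Levels of different genes were compared per kilobase of exon, with exon lengths taken from GENCODE M21. On this scale Esrp1 had 6.77 CPM per kb and Esrp2 2.47 CPM per kb in wild type, so Esrp1 made up 73.3% of the summed ESRP level. In T/T the values were 0.527 and 14.5 CPM per kb, and Esrp2 made up 96.5% of the sum. The summed ESRP level was 9.24 CPM per kb in wild type and 15.0 CPM per kb in T/T, 1.62-fold higher in T/T. On this scale the lower Esrp1 level in T/T came with a higher summed ESRP level, and the size of that rise depends on the scale. Per kb of the longest coding transcript, Esrp1 was at 11.1 CPM in wild type and 0.860 CPM in T/T. Esrp2 was at 3.03 and 17.8 CPM on that scale, which makes the summed rise smaller. The rescalings tried multiply all T/T values by 0.808 to 0.912 and would make it smaller again.

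**Figure D2:**
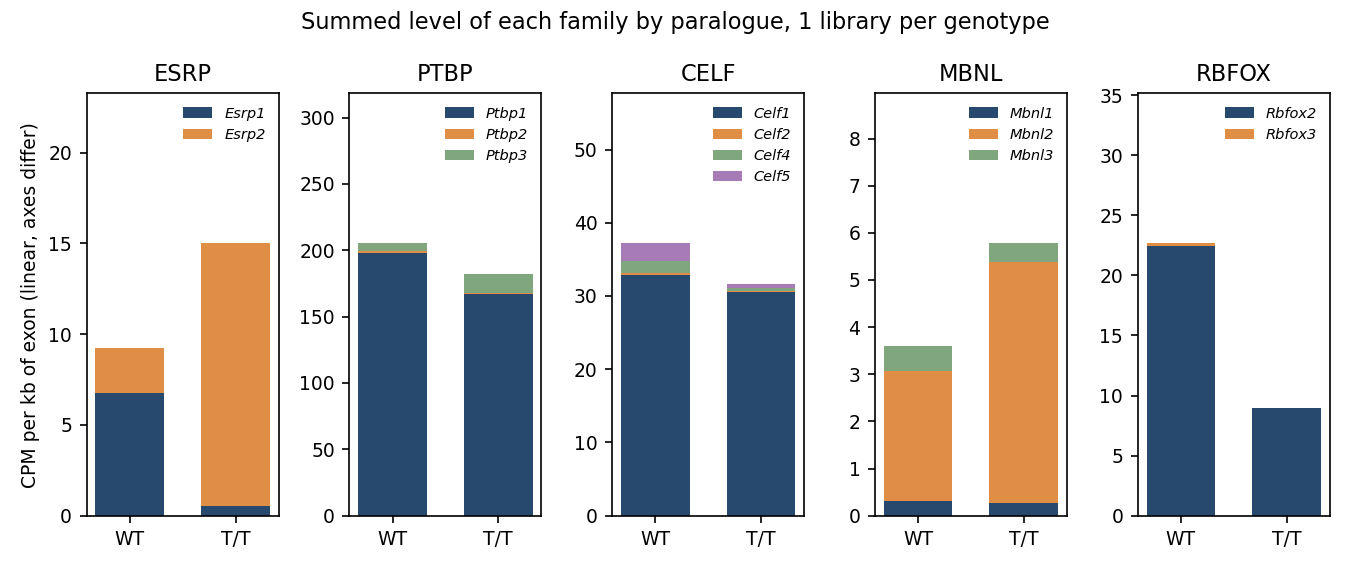
Summed RNA level of each family in CPM per kb of exon (linear axes that differ between panels) in the wild-type (WT) and Fbxl10 T/T library, with segments for the paralogues and 1 library per genotype. The ESRP bar passes from mostly Esrp1 (73.3%) to mostly Esrp2 (96.5%), while Ptbp1, Celf1, Mbnl2 and Rbfox2 hold the largest segment of their families in both libraries.

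Rbfox2, a regulator that binds UGCAUG motifs beside exons, was the next most lowered gene after Esrp1. It was at 182.6 CPM in wild type and 73.0 CPM in T/T, from 4360 and 1801 reads. It was 2.50-fold lower in T/T (interval 2.37 to 2.65). Rbfox2 (chromosome 15, 76912769 to 77137035) shares no exonic base with another gene in GENCODE M21. Of its paralogues, the neuronal gene Rbfox3 had 34 reads in wild type (1.42 CPM) and 1 read in T/T (0.0405 CPM), a ratio of 35.1 with a counting interval of 5.90 to 1430. Rbfox1 was not listed. The summed RBFOX level was 2.53-fold lower in T/T, and Rbfox2 made up 98.9% of it in wild type and 99.9% in T/T.

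The CELF genes differed in the size of their ratios. Celf1, a broadly expressed regulator of splicing and mRNA decay (chromosome 2, 90780554 to 90859654), was at 277.2 CPM in wild type and 257.7 CPM in T/T, 1.08-fold lower (interval 1.04 to 1.11). Celf2, a paralogue with roles in brain, heart and lymphocytes (chromosome 2, 6462915 to 7002253), was at 7.79 CPM in wild type and 3.44 CPM in T/T, from 186 and 85 reads. It was 2.26-fold lower, with an interval of 1.74 to 2.96 that includes 2-fold, and with a pseudocount of 1 CPM it no longer passed the 2-fold rule. The ratio of Celf2 to Celf1 reads was 2.10 times smaller in T/T (interval 1.62 to 2.72). The neural paralogues Celf4 (14.1 and 3.73 CPM, 3.78-fold) and Celf5 (16.2 and 3.77 CPM, 4.30-fold) were also lower. Celf1 made up 88.3% of the summed CELF level per kb of exon in wild type and 96.4% in T/T, and Celf3 and Celf6 were not listed. These shares depend on the length used, as do those of the other families. Per kb of the longest coding transcript, Celf1 was at 35.3 CPM in wild type and 32.8 CPM in T/T. Celf4 was at 3.52 and 0.933 CPM on that scale and Celf5 at 3.69 and 0.858 CPM.

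Among the MBNL genes only Mbnl2 had a fold whose interval lay away from 1. Mbnl2 (chromosome 14, 120674929 to 120828847) was at 33.2 CPM in wild type, from 794 reads, and at 61.4 CPM in T/T, from 1516 reads. It was 1.85-fold higher in T/T (interval 1.69 to 2.02), just short of the 2-fold rule. Mbnl1 (chromosome 3, 60305174 to 60433670) was at 5.74 CPM in wild type and 5.02 CPM in T/T, 1.14-fold lower with an interval of 0.889 to 1.47. Mbnl3 (chromosome X, 48466671 to 48559009) was at 4.52 and 3.40 CPM, 1.33-fold lower with an interval of 0.990 to 1.79. With 137 and 124 reads for Mbnl1 and 108 and 84 for Mbnl3, differences of this size were not detectable at this depth. The summed MBNL level per kb was 1.61-fold higher in T/T, and the share of Mbnl2 in it was 77.1% in wild type and 88.6% in T/T.

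The PTBP genes were led by Ptbp1 in both libraries. Ptbp1, a repressor of neuronal and muscle exons (chromosome 10, 79317350 to 79327177), was at 937.0 CPM in wild type and 790.5 CPM in T/T, from 22377 and 19515 reads. It was 1.19-fold lower (interval 1.16 to 1.21). Exons of other genes, among them Plppr3 (7.75 and 4.90 CPM), covered 20.7% of the exonic bases of Ptbp1, and whether the counting used strand is not given in the sources used here. Ptbp2, the neuronal paralogue (chromosome 3, 119421918 to 119486176), was at 17.4 CPM in wild type and 12.1 CPM in T/T, 1.43-fold lower (interval 1.23 to 1.67). Both genes were thus lower in T/T, and the ratio of Ptbp2 to Ptbp1 reads was 1.21 times smaller there (interval 1.04 to 1.41). Ptbp3, the third paralogue, was on the other side, at 42.2 CPM in wild type and 103.3 CPM in T/T (2.44-fold higher, interval 2.27 to 2.63). It made up 2.75% of the summed PTBP level per kb in wild type and 7.59% in T/T, while Ptbp1 made up 96.3% and 91.7%.

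In wild type the order of levels per kb of exon was Ptbp1 (197.7 CPM per kb), Celf1 (32.8), Rbfox2 (22.4), Esrp1 (6.77), Mbnl2 (2.77), Esrp2 (2.47), Ptbp2 (1.89), Mbnl3 (0.517), Mbnl1 (0.306) and Celf2 (0.301). The counting intervals of Mbnl2 and Esrp2, and those of Mbnl1 and Celf2, overlapped, so the order within each of these pairs is not resolved. In T/T the first places were Ptbp1 (166.8 CPM per kb), Celf1 (30.5), Esrp2 (14.5), Rbfox2 (8.96), Mbnl2 (5.12) and Ptbp2 (1.32). Esrp1 followed with 0.527 CPM per kb, then Mbnl3 with 0.389, Mbnl1 with 0.268 and Celf2 with 0.133. Esrp2 thus moved from the sixth place to the third and Esrp1 from the fourth to the seventh. The intervals of Esrp1 and Mbnl3, and of Mbnl3 and Mbnl1, overlapped in T/T. With the length of the longest coding transcript in place of the exon total, Ptbp2 passed Esrp2 and Mbnl1 passed Mbnl3 in wild type, and Mbnl2 passed Rbfox2 and Mbnl1 passed Esrp1 and Mbnl3 in T/T.

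RefSeq promoter windows (GRCm38.p6, a build other than the mm9 of the expression table) were available here for 7 of the 10 genes. The set of windows used held none for Esrp1, Esrp2 and Rbfox2, so the promoters of these genes were not examined. They are given because the CXXC domain of KDM2B binds unmethylated CpG dinucleotides, and the windows show how much CpG each start holds. Each sequence below is the 250 bases before an annotated start, read 5′ to 3′ on the strand of the gene, with every CpG in capitals. CpG reads the same on both strands. The window of Celf2, which was lower in T/T, is the richest in CpG of its 5 windows (chr2:6872036-6872285, minus strand). Those of Mbnl2 (chr14:120275419-120275668, plus strand), which was higher, and Ptbp1 (chr10:79854182-79854431, plus strand), the most abundant of the 10, are the only ones of their genes.
Celf2: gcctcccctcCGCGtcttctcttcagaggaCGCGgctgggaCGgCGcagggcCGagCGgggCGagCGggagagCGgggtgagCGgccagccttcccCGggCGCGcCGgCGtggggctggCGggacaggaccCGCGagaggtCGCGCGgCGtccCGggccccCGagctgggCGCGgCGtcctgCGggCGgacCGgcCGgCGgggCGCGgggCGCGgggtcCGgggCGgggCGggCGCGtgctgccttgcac
Mbnl2: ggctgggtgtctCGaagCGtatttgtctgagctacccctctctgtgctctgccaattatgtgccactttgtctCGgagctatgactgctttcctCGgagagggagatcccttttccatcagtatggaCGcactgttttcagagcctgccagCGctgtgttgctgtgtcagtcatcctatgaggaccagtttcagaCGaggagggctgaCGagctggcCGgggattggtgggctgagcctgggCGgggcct
Ptbp1: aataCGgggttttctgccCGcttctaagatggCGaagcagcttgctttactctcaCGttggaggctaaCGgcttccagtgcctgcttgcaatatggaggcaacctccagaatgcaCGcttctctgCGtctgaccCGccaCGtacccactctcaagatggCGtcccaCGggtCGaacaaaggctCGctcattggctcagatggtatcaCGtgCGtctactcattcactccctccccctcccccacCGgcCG
The Celf2 window holds 43 CpG and 82.8% G and C, the Mbnl2 window 10 CpG and 57.2%, and the Ptbp1 window 17 CpG and 57.6%. Of all 32851 windows in the table, 0.712% hold at least 43 CpG, 37.8% at least 10 and 23.5% at least 17, and the median is 6. The other 4 windows of Celf2 hold 3 to 7 CpG. Mbnl1 likewise has a window with 33 CpG and another with 1, and Celf1, Ptbp2 and Mbnl3 have 24, 23 and 15. Mbnl1, Celf1, Ptbp2 and Mbnl3 all differed by less than 2-fold between the libraries, and a relation of CpG content to the ratios was not tested. Gene-level counts do not show which start of Celf2 or Mbnl1 was in use, and no binding or methylation was measured in these libraries.

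Within the wider splicing machinery, most genes differed by less than 2-fold between the libraries, and Esrp1 and Esrp2 had the smallest and largest log2 ratios, though Esrp1 not the largest plain fold. A list of 139 other genes for splicing factors held 130 that were listed, with 5 genes past 2-fold upward, 16 past 2-fold downward and 109 in neither class. That is 3.85% higher and 12.3% lower, against 14.8% and 20.6% of all genes, and the median log2 ratio was -0.05. Among the 140 splicing genes, the 10 regulators included, Esrp1 had the smallest log2 ratio (-3.50) and Esrp2 the largest (2.50). They kept these places under every pseudocount, minimum and rescaling tried, all of which keep a pseudocount. Members and lists were chosen with earlier results of these data known, so these places are a description and not a test. The next smallest was Pcbp3, a poly(C)-binding protein gene, at -3.31. As plain folds without a pseudocount, 3 of the 140 genes lay beyond Esrp1, namely Rbfox3 (above, 1 read in T/T), Pcbp3 (17.3 and 1.30 CPM, 13.3-fold lower) and Nova1. Nova1, a neuronal splicing regulator gene named after its value was seen, was at 3.68 and 0.284 CPM, 13.0-fold lower from 88 and 7 reads. Rbfox3 and Nova1 reached 1 CPM in wild type only, so they entered this ranking through the library where they were higher. The counting intervals of all 3 genes beyond Esrp1 include its 12.9-fold. The next largest was Rbmx, which encodes an X-linked hnRNP (13.4 and 68.3 CPM, 5.10-fold higher).

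**Figure D3:**
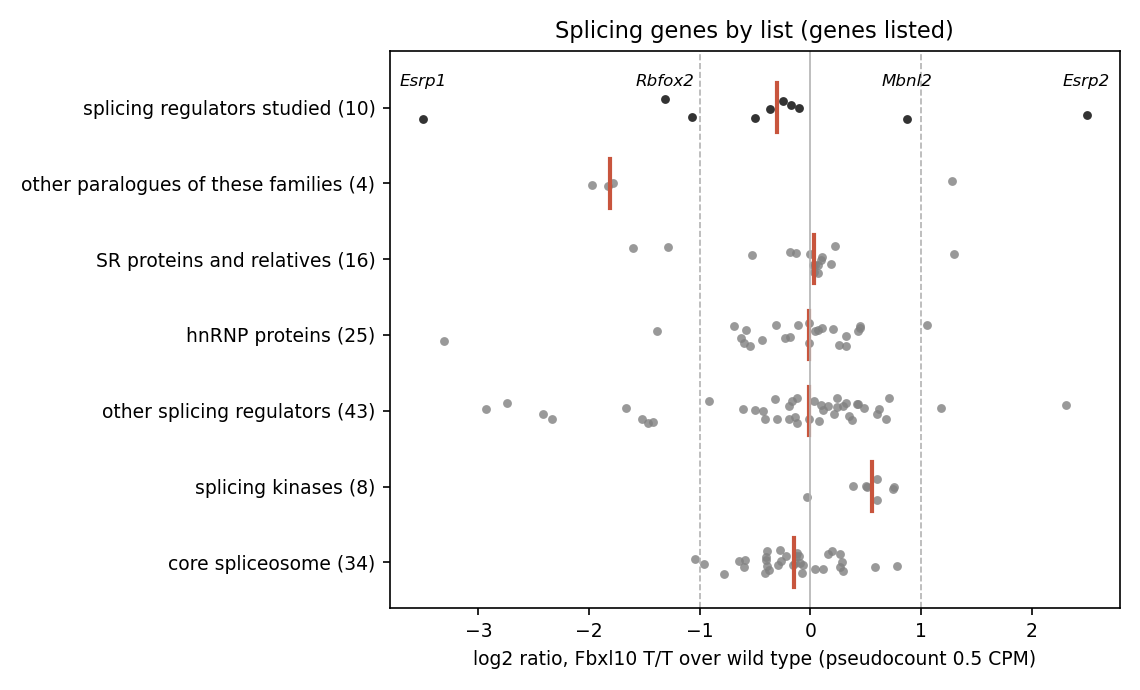
Log2 ratio of Fbxl10 T/T over wild type (0.5 CPM added to each) for the 10 splicing regulators (black) and for 6 lists of other splicing genes (grey), 1 point per gene, with red bars for medians and dashed lines at 2-fold. Most points lie between the dashed lines, and Esrp1 and Esrp2 are the outermost points to the left and right.

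The SR proteins, which promote exon use, numbered 16 with their relatives. Of these 16 genes, 1 was 2-fold higher, 2 were lower and 13 lay in between (median 0.04). That is 6.25% higher and 12.5% lower, against 14.8% and 20.6% of all genes. Srek1 was at 22.8 and 56.9 CPM (2.50-fold higher) and Srsf2 at 32.7 and 13.1 CPM (2.49-fold lower), and other genes' exons cover 25.3% of Srsf2. Srsf4 was 1.45-fold lower from 36.3 CPM in wild type, and Srrm1, Srsf9 and Srsf11 were within 1.2-fold of wild type. A list of hnRNP and poly(C)-binding proteins held 25 genes and leaves out Rbmx and the PTBP genes. Of the 25 on the list, 1 was higher and 2 were lower (4% and 8%, median -0.02). Pcbp4 was at 110.7 and 230.0 CPM (2.08-fold higher), Hnrnph3 at 12.0 and 4.29 CPM (2.80-fold lower) and Hnrnpl, whose protein can repress or promote exons, at 787.1 and 487.0 CPM.

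Of 43 other splicing regulators, Rbmx among them, 2 were higher and 8 lower (4.65% and 18.6%, median -0.01). Of all genes 14.8% were higher and 20.6% lower, so the share of lower genes on this list is near the background. Khdrbs3, a STAR family gene, was 8.45-fold lower (32.9 and 3.89 CPM). Raver2, whose protein binds PTBP1, was 8.83-fold lower (11.8 and 1.34 CPM), and the neuronal gene Elavl3 was at 5.49 and 0.689 CPM. Rbm47, which is expressed in epithelia and endoderm, was 2.28-fold higher (29.9 and 68.3 CPM). No kinase of splicing factors passed 2-fold in either direction among 8 listed (median 0.56). Clk1 (31.9 and 54.2 CPM), Clk4 (11.2 and 19.1 CPM), Clk3 (48.9 and 74.6 CPM) and Dyrk1a (82.4 and 125.2 CPM) were 1.52- to 1.70-fold higher. Clk2 (37.6 and 53.6 CPM) and Srpk1 (85.0 and 121.3 CPM) were both 1.43-fold higher, Prpf4b was at 28.3 and 37.2 CPM, Srpk2 was at 17.2 and 16.8 CPM, and Srpk3 was not listed. Of 34 core spliceosome genes, 1 was lower (2.94%) and none higher (median -0.15). Prpf8, the U5 component at the centre of the spliceosome, was at 1013 and 492.2 CPM (2.06-fold lower), and its partner Snrnp200 was at 522.4 and 267.5 CPM. Sf3b1, a U2 component, was at 107.5 and 185.0 CPM.

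Genes whose exons these regulators are known to control were examined for RNA level only, since exon use was not measured. Of 12 genes spliced by ESRP proteins 4 were 2-fold lower (33.3%) and 1 was higher (8.33%), against 20.6% and 14.8% of all genes. Enah, an actin regulator with an epithelial exon, was at 280.0 and 62.9 CPM (4.45-fold lower), and Fgfr1 was at 147.3 and 35.9 CPM (4.10-fold lower). Fgfr3 was at 13.1 and 81.5 CPM (6.20-fold higher) and Fgfr2 at 19.1 and 29.9 CPM (1.56-fold higher), so the genes of the FGF receptor family did not share a direction. Cd44, named after its value was seen, was at 126.1 and 61.5 CPM (2.05-fold lower). Of 8 genes spliced by PTBP proteins, 2 were higher and 2 lower (25% each). The higher ones were Ptbp3 and Actn1, an actinin gene (387.7 and 957.0 CPM). The lower ones were the neuronal genes Gabbr1 (92.1 and 25.5 CPM) and Dlg4 (9.46 and 3.77 CPM). Of 9 listed genes spliced by MBNL, CELF or RBFOX proteins, 3 were lower (33.3%) and 1, Tnnt2, was higher (11.1%), with under 5 CPM in both libraries. In lists this small, counts this near the share of all genes are not a result about the lists. Foxp1, whose alternative exon differs between ES cells and their derivatives, was at 51.2 and 5.47 CPM (9.36-fold lower), and Fn1 was at 1418 and 437.1 CPM.

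Esrp1 and Esrp2 were set beside 31 epithelial genes, of which 20 were lower by 2-fold or more in T/T, 4 were higher by that much and 7 were neither (median log2 ratio -1.56). That is 64.5% lower and 12.9% higher, against 20.6% and 14.8% of all genes. The higher genes were Dsp (21.9 and 126.8 CPM, 5.78-fold), which encodes desmoplakin, and the keratin genes Krt19 (4.01-fold), Krt8 (3.74-fold) and Krt18. The lower genes included Krt7 (30.7 and 0.770 CPM), the plakophilin gene Pkp3 (39.1 and 2.35 CPM) and the claudin gene Cldn3 (21.1 and 1.09 CPM). Grhl2, a transcription factor gene of epithelia, was 10.2-fold lower and Cdh1, the E-cadherin gene, 4.37-fold lower. These 2 were named after their values were seen. Of the keratin genes named here only Krt7 was lower. The list was chosen with earlier results of these data known, so its counts are a description and not a test. With 2 libraries no likeness of pattern between these genes and Esrp1 or Esrp2 can be shown.

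**Figure D4:**
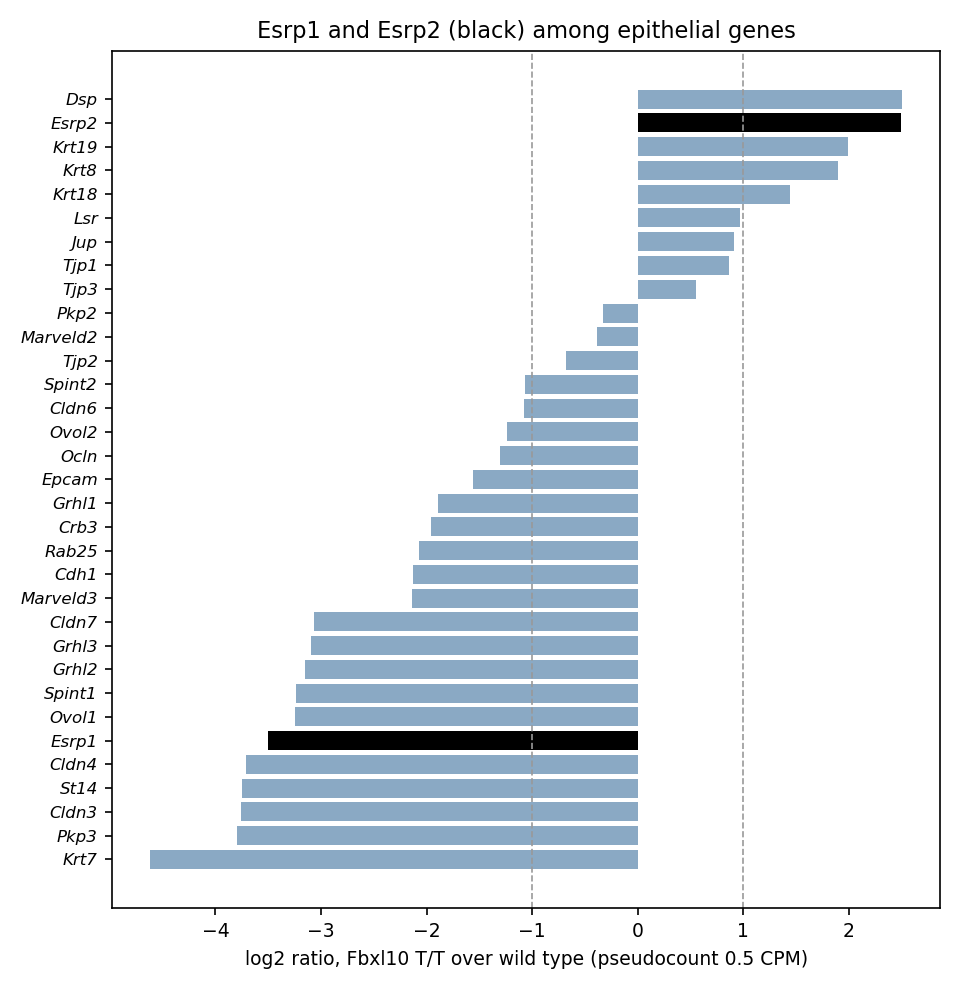
Log2 ratio of Fbxl10 T/T over wild type (0.5 CPM added) for 31 epithelial genes (blue) and for Esrp1 and Esrp2 (black), sorted, with dashed lines at 2-fold. Esrp2 lies among the 4 epithelial genes that are at least 2-fold higher and Esrp1 among the 20 that are at least 2-fold lower.

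Genes of mesenchyme, in which ESRP levels are low, were not higher as a list. Of 12 listed genes 3 were lower (Twist1, Fn1 and Cdh2), 1 was higher and 8 lay in between (median -0.78). That is 25% lower and 8.33% higher, against 20.6% and 14.8% of all genes, so these counts are near the background. The higher gene was Snai1, which encodes a repressor of epithelial genes (27.6 and 153.8 CPM, 5.57-fold). Vim was at 722.6 and 572.0 CPM and Acta2 at 213.9 and 221.6 CPM. Zeb2, whose protein like that of Zeb1 represses ESRP genes in some cell types, was at 3.48 and 3.28 CPM, below the level set for naming and added after its value was seen. Zeb1 was not listed.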

How the data were processed

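The deposited table has 24706 rows, of which 11086 repeat another, and each of its 13620 genes was taken a single time. Its values were normalised by the authors to a signal called cpm in the table, and each column is a whole multiple of 1 step: all values (100%) lay within 0.01 reads of a whole number, so reads were recovered. The submitters' processing notes name the mm9 build with TopHat 1.4.1, HTSeq 0.5.3p9 and edgeR. What each tool did, the annotation and the use of strand are not given in those notes. The columns sum to 887645 and 1098136 CPM, so their scale is not the plain sum. The authors also deposited log2 ratios of wild type over T/T, which differed by at most 0.0028 from ratios recomputed here, among genes that reached 5 CPM in both columns. A limit of 3 reads is 0.126 CPM in wild type and 0.122 CPM in T/T.

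Genes were matched by Ensembl identifier to GENCODE M21 symbols (13443 matched). The members and gene lists were chosen with earlier results of these data known. Named genes were all members, other paralogues and splicing kinases, and up to 3 genes at either end of each further list at 5 CPM or more in 1 library, with exceptions stated. Fewer were named where space required. Exon lengths, exon overlaps and shared stretches of 50 bases came from GENCODE M21, and promoter windows from RefSeq (GRCm38.p6). Only lengths and sequences, no coordinates, were joined across builds. All intervals cover counting error only and treat each read as independent. Reads can be PCR copies of 1 molecule, in which case the intervals are too narrow even for counting error. The balance of 2 paralogues has a Wald interval on the log scale from 4 read counts.

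An exact binomial test of the recovered reads with Benjamini-Hochberg adjustment, added after the data were seen, compares the 2 libraries and not the genotypes. It called 5780 genes higher and 5564 lower, 83.3% of all. Also tried were a pseudocount of 0.1 or 1 CPM, a minimum of 5 CPM or none, rescaling of T/T by median, upper quartile or sum, and fold thresholds of 1.5 and 4. The steps were tested on simulated reads. Scripts ran under Python 3.11.15 with scipy 1.17.1, numpy 2.4.6 and pandas 2.3.3, and matplotlib 3.10.9 drew the plots.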

Additional observations from a re-analysis of the deposited data

How the results depend on the processing

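No paired analysis was possible because each genotype had 1 library, and none could be left out. Rescaling T/T to a common median, upper quartile or equal sums lowers all its log2 values by 0.13, 0.24 or 0.31 before the pseudocount, and the 1994 higher and 2781 lower genes at 2-fold became 1660 and 3025, 1435 and 3254, or 1310 and 3405. No ratio of the 10 regulators changed sign under any alternative. With the common median the log2 ratio was -0.24 for Celf1, 0.74 for Mbnl2, -0.38 for Ptbp1 and -1.45 for Rbfox2. With the upper quartile it was -0.34 for Celf1, 2.26 for Esrp2, 0.64 for Mbnl2, -0.48 for Ptbp1, -0.73 for Ptbp2 and -1.56 for Rbfox2. With equal sums it was -0.41 for Celf1, 2.19 for Esrp2, 0.57 for Mbnl2, -0.55 for Ptbp1, -0.80 for Ptbp2 and -1.62 for Rbfox2. These shifts follow from the rescaling itself. At 1.5-fold 2 of the 10 regulators were higher (26.5% of all genes), and at 4-fold 1 was lower (Esrp1, with 9.1% of all genes). Of the other splicing genes, 5 were higher at 2-fold, 3 with the upper quartile, 1 with equal sums, 14 at 1.5-fold and 1 at 4-fold, and 16 were lower at 2-fold, 26 at 1.5-fold and 5 at 4-fold. The remaining 92 values stayed within set limits. Log2 ratios among them moved by no more than the mean distance to the ends of their counting interval on the log2 scale. Counts moved by at most 1.5 times, and the median ratio (-0.59 to -0.25) by less than the quartile deviation of the 10 genes. Adding the binomial test left the counts of 1 and 3 as they were, and that test called 8 of the 10 genes, all but Mbnl1 and Mbnl3. Depth limits what can be said of Mbnl1, Mbnl3 and Celf2, with 84 to 186 reads per library. Esrp1 had fewer reads still in T/T (82), and the counting interval of its fold was 10.3 to 16.3.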
